A study of Mus musculus with 16 samples.

Results

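The mouse mitochondrial genome is a small circle that carries its own genes, and this account follows its transcripts in the brains of old mice given the peptide adropin or saline. The members were every gene of the counts table whose symbol starts with mt-, which gave 37 of 40481 genes. They comprised 13 messenger RNA (mRNA) genes, 2 ribosomal RNA (rRNA) genes and 22 transfer RNA (tRNA) genes. The symbol alone set the membership.

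Adropin is a peptide encoded by the gene Enho, and the synthetic form used here holds its putative secreted part. Male mice, C57BL in the labels and C57BL/6J in the paper, were 18 months old at purchase and received one intraperitoneal injection a day of Adropin(34-76) at 90 nmol/kg/d or of the saline diluent with albumin alone, for 2 weeks before behavioural testing and on through it. Brain tissue was frozen after a fast of 6 h, and poly-A selected RNA was sequenced from 8 mice of each group, with no genetic change in either group. Mice are named here by the number pair of their label (such as 5_4), whose meaning the labels do not give.

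Mitochondrial DNA is read in both directions as long precursors that are cut at the tRNAs lying between the other genes. Its mRNAs encode subunits of respiratory complexes I, III and IV and of ATP synthase, and its rRNAs and tRNAs serve the ribosome inside the organelle. All other proteins of the organelle, including those that transcribe this genome and process its RNA, come from nuclear genes. Mitochondrial mRNAs and rRNAs carry short poly-A tails, whereas mature tRNAs are short and heavily folded, and mt-Nd6 mRNA is known for lacking a tail.

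Adropin-treated brains had somewhat lower mean levels of every tested mitochondrial transcript, but for 14 of the 16 tested genes the 95% interval of the difference included 0, and none passed adjustment over all genes. The proline tRNA gene mt-Tp had the largest difference, with means of 18.0 CPM (read counts scaled to library size) in saline and 11.5 CPM in adropin mice. The mRNA mt-Nd4l, for a subunit of complex I, was the other member with an unadjusted p below 0.05. Saline mice 8_3 and 5_4 were the 2 highest mice for every tested member except mt-Tp, for which 5_4 alone was among them.

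The sequences of the members on which the results turn are shown first, from the GENCODE M21 transcripts (build GRCm38), 5′ to 3′ on the strand of each gene. mt-Tp lies at chrM:15356-15422, on the minus strand, next to the control region. It was the one tRNA with enough reads to be tested. The capitals mark the anticodon, in a loop flanked by a paired stem. The asparagine tRNA mt-Tn (chrM:5089-5159), the cysteine tRNA mt-Tc (chrM:5192-5257) and the glutamate tRNA mt-Te (chrM:14071-14139), all on the minus strand, followed mt-Tp in read count. The phenylalanine tRNA mt-Tf (chrM:1-68), on the plus strand, is shown as a tRNA of the other strand, where few reads were counted.
mt-Tp: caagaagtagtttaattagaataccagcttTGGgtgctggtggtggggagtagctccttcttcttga
mt-Tn: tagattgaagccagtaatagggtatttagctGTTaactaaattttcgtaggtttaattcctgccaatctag
mt-Tc: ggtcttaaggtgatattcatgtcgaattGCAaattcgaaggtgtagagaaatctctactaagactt
mt-Te: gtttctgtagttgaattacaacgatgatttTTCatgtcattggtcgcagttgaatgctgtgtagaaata
mt-Tf: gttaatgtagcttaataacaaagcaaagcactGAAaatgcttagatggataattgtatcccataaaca

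A pair of overlapping reading frames limits what counts of uniquely assigned reads can show. The last 43 bases of mt-Atp8 (chrM:7766-7969) are also the first of mt-Atp6 (chrM:7927-8607), both for ATP synthase subunits. The last 7 bases of mt-Nd4l (chrM:9877-10173) are the first of mt-Nd4 (chrM:10167-11544), both for complex I subunits. The ends of mt-Atp8 and mt-Nd4l are shown with the shared bases in capitals, in which the ATG starts the next frame.
mt-Atp8 end: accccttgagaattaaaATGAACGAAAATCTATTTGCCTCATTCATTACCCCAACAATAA
mt-Nd4l end: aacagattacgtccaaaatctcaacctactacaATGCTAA

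Several mRNA genes also have near-identical copies in nuclear DNA, annotated as pseudogenes. A block of them spans chr1:24611535-24616197 (GRCm38, minus strand). There, Gm28661 matched mt-Co2 in 681 of 681 aligned bases, Gm10925 matched mt-Atp6 in 678 of 678, Gm28437 matched mt-Co3 in 783 of 783, and Gm10222 matched mt-Nd4l in 294 of 294. Gm28438 matched mt-Nd3 in 344 of 345 bases, and the one difference is T3C, counted from the first base of mt-Nd3. The first 60 bases of both are shown, with the differing base in capitals.
mt-Nd3 start: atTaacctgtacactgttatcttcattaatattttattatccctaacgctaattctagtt
Gm28438 start: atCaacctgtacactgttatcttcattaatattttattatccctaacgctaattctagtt

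Library depth ran from 35185051 to 70314050 counts in the adropin mice and from 35026503 to 47245785 in the saline mice. Genes above 1 CPM in at least 7 mice were tested, which left 14951 genes and 16 members: the 13 mRNAs, both rRNAs and mt-Tp. Markers of neurons, astrocytes, oligodendrocytes, microglia and endothelium had counts in every mouse.

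The share of all counts taken by the 37 genes was the simplest summary. In the adropin mice it was 4.02% in the lowest, 5.27% at the median and 7.42% in the highest (5.37% ± 1.04, SD, n = 8). In the saline mice it was 4.39%, 5.60% and 9.54% (6.39% ± 1.91, SD, n = 8). The groups overlapped widely, and 6 of the 8 adropin mice lay below the saline median. The log2 ratio of the group means of the mitochondrial share of counts was -0.25, and it was -0.15 without saline mouse 8_3 and -0.16 without 5_4. As in any bulk sample, fewer cells of a type and less RNA per cell cannot be told apart.

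Split by class, the mRNAs took 4.34% ± 0.814 of counts in adropin and 5.20% ± 1.52 in saline mice (SD, n = 8 each). The rRNAs took 1.03% ± 0.230 and 1.20% ± 0.392. The tRNAs took 0.00130% ± 0.000507 and 0.00204% ± 0.000669. In each class the difference of the means was smaller than the sum of the SDs of both groups, and the ranges overlapped. Against single SDs, the rRNA difference was smaller than both, the mRNA difference larger than the adropin SD only, and the tRNA difference larger than both. The tRNA class was mostly mt-Tp, with 9947 reads against 1257 for the other 21 genes.

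**Figure D1:**
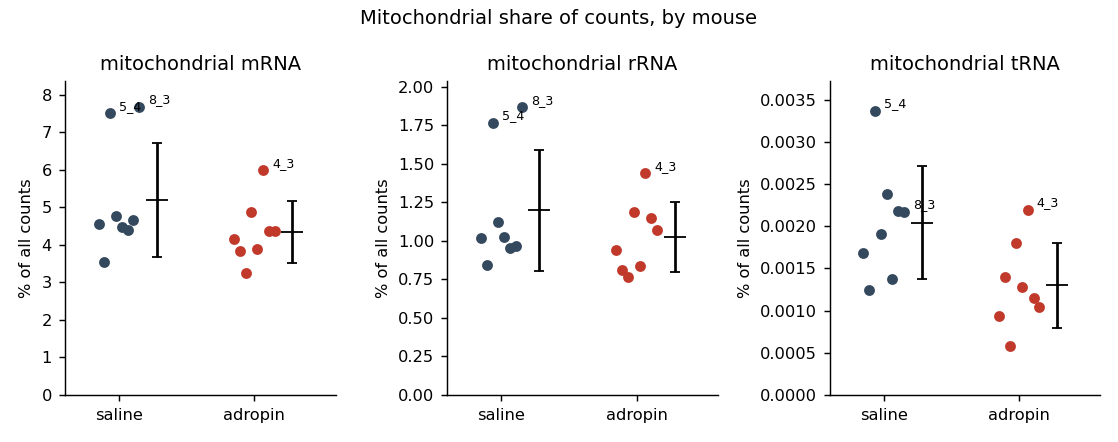
Percent of all counts taken by mitochondrial mRNAs, rRNAs and tRNAs in each mouse (points), with the mean and SD of each group (black, n = 8). Saline mice 8_3 and 5_4 lie above all others for mRNA and rRNA, and adropin mouse 4_3 is the highest of its group.

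Saline mice 8_3 and 5_4 stood apart from the rest, with mitochondrial shares of 9.54% and 9.27%, followed by adropin mouse 4_3 with 7.42%. The other 13 mice lay between 4.02% and 6.05%. Mouse 5_4 was among the 2 highest for 16 of the 16 tested members and mouse 8_3 for 15, and adropin mouse 2_4 was the lowest for 15. The same 3 mice also had the highest levels of Ttr, the transthyretin gene that choroid plexus, the tissue that makes cerebrospinal fluid, expresses strongly: 2398 CPM in 8_3, 311 in 5_4 and 63.1 in 4_3, against at most 40.2 in the other 13. The 40.2 CPM was that of 2_4, the mouse with the lowest mitochondrial share. Their part in the result was not tested.

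**Figure D2:**
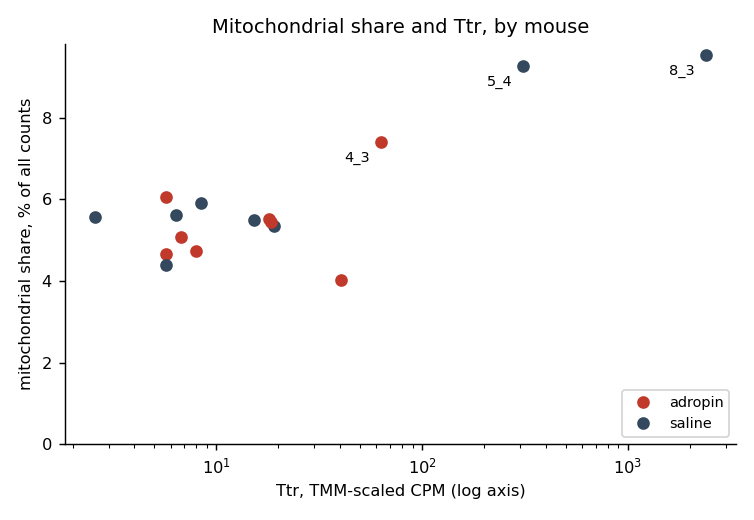
Mitochondrial share of all counts (vertical axis, percent) against the Ttr level in CPM (horizontal, log axis) for each of the 16 mice. Mice 8_3, 5_4 and 4_3 have the highest values on both axes, and among the other 13, with shares of 4.02% to 6.05%, the highest Ttr level goes with the lowest share.

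Without mice 8_3 and 5_4, the log2 ratio of the shares moved from -0.25 to -0.0064. These mice were picked for their high values and both were in the saline group, so leaving them out moves the difference upward by construction. Without 4_3 as well, that is without the 3 highest of all 16 mice, the log2 ratio of the shares was -0.087.

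Gene by gene, edgeR's quasi-likelihood test gave a log2 fold change below 0 for 16 of 16 tested members, with a median of -0.25 against -0.0019 over all genes tested. These members share one genome and vary together from mouse to mouse, so the 16 values are not separate evidence. The median log2 fold change over tested mitochondrial genes was -0.15 without saline mouse 5_4 and -0.16 without 8_3. Of all genes tested, 3.99% had an unadjusted p below 0.05, 2.13% with a lower and 1.86% with a higher level in adropin mice. Among the members, 2 of 16 were called lower and 0 higher, and both limma-voom and DESeq2 also gave 2 lower and 0 higher. No member had an adjusted p below 0.05 by edgeR, limma-voom or DESeq2, and 0% of all genes had one by edgeR. The edgeR adjusted p was 0.873 for 15 members and 0.876 for mt-Rnr1. Past both a fold change of 1.5 and an unadjusted p of 0.05 were 0.421% of all genes and 1 member, mt-Tp.

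**Figure D3:**
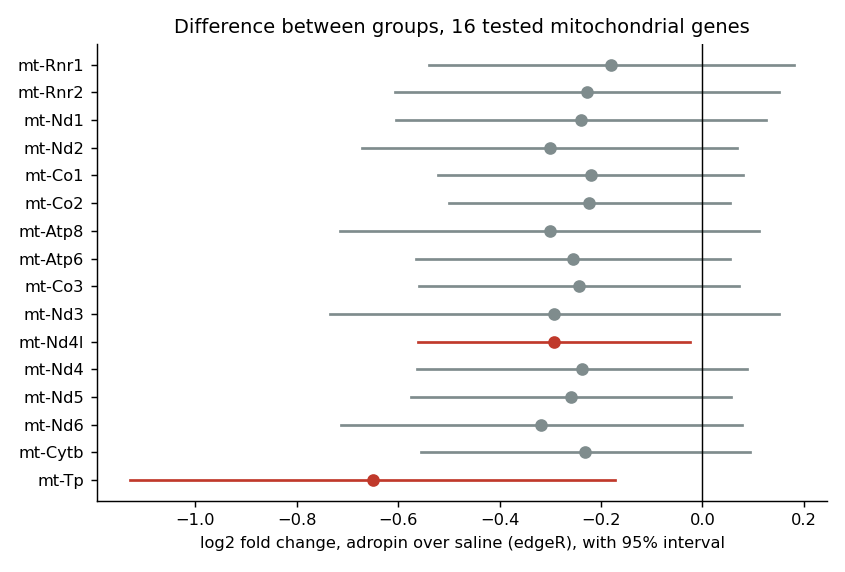
Log2 fold change of adropin over saline (point) with its 95% interval (line) for the 16 tested mitochondrial genes in order along the genome, by edgeR with n = 8 a group. Red marks mt-Tp and mt-Nd4l, whose intervals lie below 0, and the other 14 intervals include 0.

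The proline tRNA gene mt-Tp had 200 to 1059 reads a mouse. Its level in the adropin mice was 5.03 CPM in the lowest, 11.1 at the median and 19.0 in the highest. In the saline mice it was 11.4, 17.6 and 30.7 CPM. The groups overlapped, although 4 adropin mice lay below the lowest saline mouse and 3 saline mice above the highest adropin mouse. The log2 fold change was -0.65 (SE 0.23), with an unadjusted p of 0.0105 and an adjusted p of 0.873 by edgeR. It kept an unadjusted p below 0.05 when any single mouse was left out, at -0.78 to -0.50. Without mice 8_3 and 5_4 it was -0.46 (unadjusted p = 0.0518 by edgeR), and without 4_3 as well it was -0.60 (unadjusted p = 0.00851 by edgeR). Counting by strand is not stated and the library protocol as described marks none, so reads from mt-Tp and from transcripts opposite to it cannot be told apart.

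Set against mt-Cytb in the same library, the level of mt-Tp needs no scaling. The log2 ratio of their counts ran from -10.28 to -9.24 in adropin mice, with a median of -9.51, and from -9.58 to -8.72 in saline mice, with a median of -9.14. The ranges overlapped. This pair was chosen after its values were seen and has no test.

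The mRNA mt-Nd4l was at 47.0 CPM in the lowest adropin mouse, 63.3 at the median and 77.0 in the highest. In saline mice it was at 57.4, 68.9 and 107.5 CPM, the highest being 8_3. Of the adropin mice, 3 lay below the lowest saline mouse, and 2 saline mice lay above every adropin mouse. The log2 fold change was -0.29 (SE 0.13), with an unadjusted p of 0.0340 and an adjusted p of 0.873 by edgeR. This call rested on single mice: the unadjusted p was 0.0666 without adropin mouse 1_3, 0.0754 without 2_4, 0.0718 without 3_3, 0.0767 without saline mouse 5_4 and 0.0931 without 8_3, all by edgeR. In these fits the log2 fold change was -0.26 to -0.20. Without both 8_3 and 5_4 the log2 fold change was -0.11 (unadjusted p = 0.270 by edgeR). Blocking on the first number of the labels gave -0.13 (unadjusted p = 0.497) and on the second -0.32 (unadjusted p = 0.0545), by edgeR. Only first numbers 2, 5 and 7 and second numbers 1, 3 and 4 hold mice of both groups. The blocked log2 fold changes thus rest on those mice and not on all 16.

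**Figure D4:**
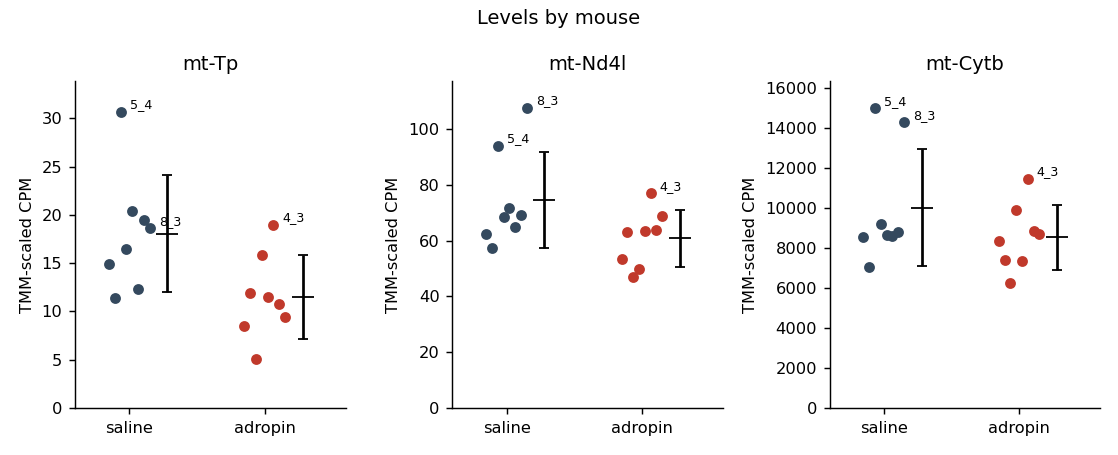
Levels of mt-Tp, mt-Nd4l and mt-Cytb in CPM for each mouse (points), with the mean and SD of each group (black, n = 8). The groups overlap for all 3 genes, and 4 adropin mice lie below every saline mouse for mt-Tp.

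The other 14 tested members had log2 fold changes from -0.32 to -0.18 and unadjusted p from 0.101 to 0.310 by edgeR. Both rRNAs were among the smallest differences. The small-subunit rRNA mt-Rnr1 (chrM:70-1024) was at 3310, 4679 and 5772 CPM (lowest, median, highest) in adropin mice. In saline mice it was at 3760, 4261 and 8180 CPM. The saline median was thus the lower of the medians, while the saline mean was the higher. Its log2 fold change was -0.18 (SE 0.17, unadjusted p = 0.310 by edgeR). The large-subunit rRNA mt-Rnr2 (chrM:1094-2675) was at 4455, 5715 and 8190 CPM in adropin mice and at 4772, 5725 and 10658 CPM in saline mice. Its log2 fold change was -0.23 (SE 0.18, unadjusted p = 0.222 by edgeR), so for mt-Rnr2 the difference of means came with nearly equal medians.

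Among the mRNAs for complex I, mt-Nd1 (chrM:2751-3707) was at 4784, 6668 and 9154 CPM in adropin mice (lowest, median, highest). In saline mice it was at 5151, 6881 and 12205 CPM. Its log2 fold change was -0.24 (SE 0.17, unadjusted p = 0.184 by edgeR), and the groups overlapped except for the 2 highest saline mice and the lowest adropin mouse. The log2 fold changes of mt-Nd2, mt-Nd5 and mt-Nd4 were -0.30, -0.26 and -0.24. mt-Nd6 (chrM:13552-14070), the single mRNA gene of the minus strand, was at 1020, 1346 and 1870 CPM in adropin mice. In saline mice it was at 1077, 1480 and 2755 CPM. It had the largest difference of the mRNAs, -0.32 (SE 0.19, unadjusted p = 0.109 by edgeR), and the groups overlapped except for the 2 highest saline mice and the lowest adropin mouse. Its reads cannot be told apart from those of transcripts opposite to it, for the reason given for mt-Tp.

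mt-Cytb (chrM:14145-15288), the single complex III subunit of this genome, was at 6257, 8523 and 11462 CPM in adropin mice. In saline mice it was at 7039, 8730 and 14997 CPM. The medians were close, and the log2 fold change was -0.23 (SE 0.15, unadjusted p = 0.152 by edgeR). Of the complex IV subunits, mt-Co1 (chrM:5328-6872) had the highest level of all members, at 10323, 13489 and 17194 CPM in adropin mice and at 11012, 13884 and 23139 CPM in saline mice. Its log2 fold change was -0.22 (SE 0.14, unadjusted p = 0.140 by edgeR). mt-Co2 and mt-Co3 had log2 fold changes of -0.22 and -0.24.

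The ATP synthase mRNAs gave similar differences. mt-Atp8 was at 14.9, 25.5 and 40.3 CPM in adropin mice and at 20.8, 28.2 and 49.4 CPM in saline mice (lowest, median, highest), with a log2 fold change of -0.30 (SE 0.20, unadjusted p = 0.143 by edgeR). mt-Atp6 was at 213, 297 and 404 CPM in adropin mice and at 249, 315 and 506 CPM in saline mice, with a log2 fold change of -0.25 (SE 0.15, unadjusted p = 0.101 by edgeR). In both genes the 2 highest mice were saline 8_3 and 5_4.

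mt-Nd3 (chrM:9459-9806) was at 30.0, 42.8 and 70.3 CPM in adropin mice and at 33.0, 54.1 and 95.02 CPM in saline mice, with a log2 fold change of -0.29 (SE 0.21, unadjusted p = 0.183 by edgeR). mt-Nd4 was at 2699, 3676 and 4943 CPM in adropin mice and at 3090, 3810 and 6588 CPM in saline mice, with a log2 fold change of -0.24 (SE 0.16, unadjusted p = 0.144 by edgeR). For each, 2 saline mice lay above and 1 adropin mouse below the range of the other group.

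Without mice 8_3 and 5_4, 8 of the 16 log2 fold changes were below 0 and 8 above, the median was 0.0029 and 0 members were called at an unadjusted p below 0.05 by edgeR. Without 4_3 as well, 15 of 16 were below 0, with a median of -0.073, and mt-Tp alone was called lower. Leaving out adropin mouse 4_3 alone raised the number called lower to 6, adding mt-Nd2, mt-Co2, mt-Atp8 and mt-Atp6 (adjusted p = 0.512 by edgeR). Leaving out saline mouse 5_3, one of the lowest, gave 4, adding mt-Nd2 and mt-Atp6 (adjusted p = 0.673 by edgeR). The share of all genes called is not given for these fits, so neither count can be set against a background. The number of members called therefore depended on single mice in both directions, whereas mt-Tp was in it each time 1 mouse was left out.

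Levels per kilobase (kb) of gene differed far more between members than between groups. Over the 16 mice, mt-Co1 was the highest at 9361 ± 2262 CPM per kb, followed by mt-Cytb at 8108 ± 2110 and mt-Nd1 at 7549 ± 2235 (SD, n = 16), and this order held in every mouse. mt-Rnr1 at 5014 ± 1419 and mt-Nd2 at 4889 ± 1532 CPM per kb did not differ beyond their spread, with mt-Rnr1 higher in 9 of 16 mice. mt-Rnr2 followed at 4006 ± 1227 CPM per kb. mt-Nd6 was at 2949 ± 1000, mt-Nd4 at 2914 ± 770 and mt-Nd5 at 2738 ± 726 CPM per kb, with mt-Nd6 higher than mt-Nd4 in 8 of 16 mice.

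A gap then separated these 9 genes, at 2738 to 9361 CPM per kb, from the other mRNAs. mt-Co2, mt-Atp6, mt-Co3, mt-Nd4l and mt-Nd3 were at 562 ± 122, 478 ± 119, 313 ± 78.0, 228 ± 51.7 and 151 ± 53.3 CPM per kb. These are the 5 mRNA genes with an annotated copy of nearly their whole length in the chr1 block: of their stretches of 150 bases, 97.0% to 99.8% occur unchanged in another annotated transcript. The same share was 59.2% for mt-Nd4, 23.6% for mt-Co1 and 0% for mt-Rnr1, mt-Rnr2, mt-Nd1, mt-Nd2, mt-Nd5, mt-Nd6 and mt-Cytb. The counts take uniquely aligned reads only, so per-kb levels of genes with shared stretches, mt-Nd4 and mt-Co1 included, are not strictly comparable with the others. The libraries were also poly-A selected, and mt-Nd6 mRNA is known for lacking a tail. Levels per kb, those of rRNAs against mRNAs included, therefore need not rank the amounts of RNA in the tissue. The part of the shared stretches in the low levels was not tested. mt-Atp8 was as low, at 143 ± 47.1 CPM per kb and below mt-Nd3 in 11 of 16 mice. mt-Atp8 shares 43 of its 204 bases with mt-Atp6, and ambiguous reads were not counted. The part of this overlap in its level was not tested. Of its stretches of 150 bases, 0% occur in another annotated transcript, but annotation does not cover the whole block. The copies of mt-Co2 and mt-Atp6 are 233 bases apart (chr1:24614652-24614884), as are their matched parts in the mitochondrial genome (chrM:7694-7926), and the latter stretch holds 161 of the 204 bases of mt-Atp8. The sequence of the chr1 stretch was not compared here, so whether mt-Atp8 is also copied there was not tested.

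**Figure D5:**
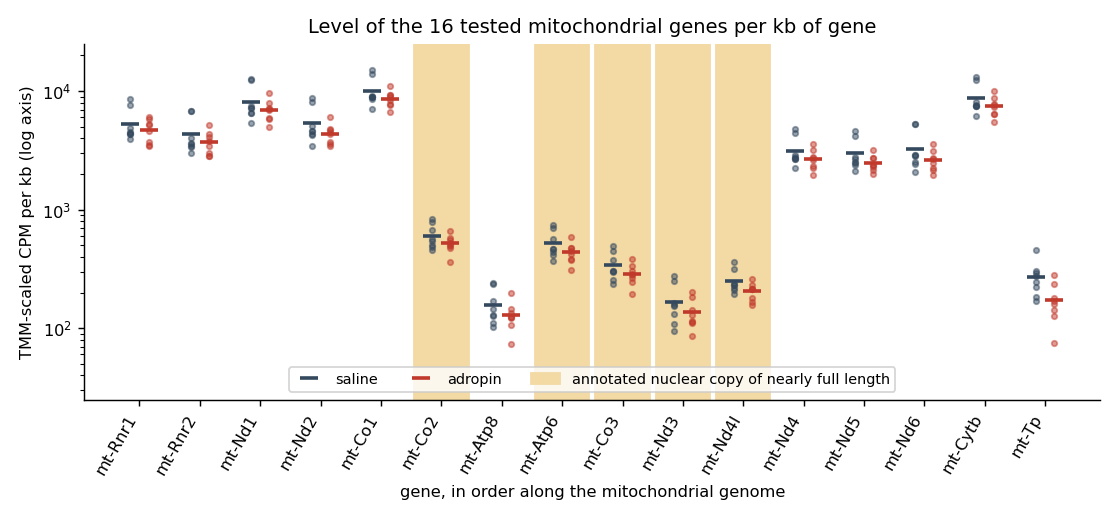
Level per kb of gene (CPM per kb, log axis) of the 16 tested mitochondrial genes in their order along the genome, for each saline and adropin mouse (points) with group means (bars). Shading marks the 5 mRNA genes with an annotated copy of nearly full length on chromosome 1, which lie at 151 to 562 CPM per kb. Of the unshaded genes, mt-Atp8 at 143 and the tRNA gene mt-Tp at 220 CPM per kb are as low (whether mt-Atp8 has an unannotated copy was not tested), and the 9 others lie at 2738 to 9361.

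The 7 nuclear copies of the chr1 block were themselves counted. Gm28661 averaged 361 CPM over the 16 mice against 384 for mt-Co2, Gm10925 432 against 325 for mt-Atp6, and Gm28437 302 against 246 for mt-Co3. Gm28438 averaged 60.5 CPM against 52.5 for mt-Nd3, and Gm10222 31.3 against 67.6 for mt-Nd4l. The partial copies were far below their mitochondrial genes, Gm28439 at 179 CPM against 4015 for mt-Nd4 and Gm29216 at 417 against 14463 for mt-Co1. The log2 fold changes of the 5 near-complete copies were, in the order given, -0.24, -0.25, -0.24, -0.29 and -0.28, near those of the mitochondrial genes, and none had an unadjusted p below 0.05 by edgeR. When the counts of each copy were added to its mitochondrial gene, the same number of members, 2, was called lower, and mt-Nd4l was at -0.29 (unadjusted p = 0.0390 by edgeR).

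Apart from mt-Tp, the tRNA genes were barely counted. The other 21 had 1257 reads in all, with at most 45 reads for any gene in any mouse. Their summed reads were 34 to 89 a mouse in the adropin group (median 76.0) and 52 to 149 in the saline group (median 90.0), and the ranges overlapped. The reads lay mostly over genes of one strand: the 7 other genes of the minus strand had 1019 reads and the 14 genes of the plus strand had 238. mt-Tn had 340 reads over the 16 mice, mt-Tc 304, mt-Te 204 and the serine tRNA mt-Ts1 102, all of the minus strand and all with reads in every mouse. At the other end, the glycine tRNA mt-Tg had 2 reads and the aspartate tRNA mt-Td 5. A count of 0 allows up to 3 reads, or 0.0445 to 0.0869 CPM over these libraries by counting error alone, so levels of most tRNAs were not measurable at this depth. Poly-A selected libraries such as these are not made to capture mature tRNA.

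Ratios of neighbouring members within a library showed no difference beyond the spread. The log2 ratio of mt-Nd6 to mt-Cytb, genes of opposite strands whose reads the counts do not separate by strand, was -2.65 ± 0.042 in adropin and -2.59 ± 0.14 in saline mice (SD, n = 8 each, exact two-sided permutation p = 0.287, adjusted over 3 ratios p = 0.591). The saline spread was wider, and its 2 highest values, -2.39 and -2.44, were those of mice 8_3 and 5_4. The log2 ratio of mt-Rnr1 to mt-Rnr2, which lie on one precursor, was -0.38 ± 0.11 and -0.42 ± 0.071 (exact permutation p = 0.394, adjusted p = 0.591). That of mt-Rnr2 to mt-Nd1, the first mRNA after the rRNAs, was -0.19 ± 0.088 and -0.20 ± 0.080 (exact permutation p = 0.850, adjusted p = 0.850).

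The nuclear genes that serve this genome were followed as a list of 83 genes for transcription, RNA processing, RNA modification, tRNA charging and mitochondrial biogenesis. Of the 82 tested, 34 had log2 fold changes above 0 and 48 below, with a median of -0.016 against -0.0019 over all genes tested. At an unadjusted p below 0.05, 1 was called higher, beside 1.86% of all genes, and 0 lower, beside 2.13%. Polrmt, the mitochondrial RNA polymerase, averaged 39.7 ± 3.07 CPM in adropin and 41.1 ± 2.49 in saline mice (SD, n = 8 each). Tfam, which packages and activates mitochondrial DNA, averaged 26.2 ± 1.25 and 26.1 ± 1.83 CPM. Lrpprc, which stabilises mitochondrial mRNAs, averaged 59.7 ± 3.68 and 58.9 ± 4.44 CPM, and Ppargc1a, a regulator of mitochondrial biogenesis, 45.1 ± 5.25 and 42.4 ± 5.91 CPM. Each of these differences was smaller than the SD of either group.

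The gene called higher was Lars2, the mitochondrial leucyl-tRNA synthetase, with a log2 fold change of 0.66 (SE 0.29, unadjusted p = 0.0374, adjusted p = 0.873 by edgeR). Its level ran from 535 to 2425 CPM in adropin and from 605 to 1508 CPM in saline mice, so every saline mouse lay within the adropin range, and 3 adropin mice lay above every saline mouse. It moved with Gm42418, a gene model that holds ribosomal RNA sequence, which took 0.840% to 4.98% of counts in adropin and 0.985% to 3.26% in saline mice. Single mice decided the call of Lars2, which was lost when any of 8 of the 16 mice was left out. With the Gm42418 level as a covariate, the log2 fold change of Lars2 was 0.15 (unadjusted p = 0.279 by edgeR). The median over the mitochondrial members was -0.14 in that fit, mt-Tp was at -0.46 (unadjusted p = 0.0337) and mt-Nd4l at -0.24 (unadjusted p = 0.0887), by edgeR.

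The nuclear genes named as subunits or assembly factors of the 5 respiratory complexes, which work beside the mitochondrial mRNAs' products, numbered 98 tested. Of these, 11 had log2 fold changes above 0 and 87 below, with a median of -0.10. Over all genes tested, 7362 were above 0 and 7589 below, with a median of -0.0019, so the signs were split unlike the background. This split was not tested. At an unadjusted p below 0.05, 2 of the 98 were called lower and 0 higher by edgeR, beside 2.13% and 1.86% of all genes, so the share called was near the background. They were Ndufb2, a complex I subunit, at -0.20 (SE 0.085), and Ndufab1-ps, a pseudogene, at -0.30 (SE 0.13).

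Cell type markers were read for the same 16 mice. All 5 choroid plexus markers (Ttr, Kl, Clic6, Sostdc1 and Prlr) had an unadjusted p below 0.05 by edgeR and were lower in adropin mice, with a median log2 fold change of -1.31. Of all genes tested, 2.13% were called lower, and each of the 5 markers had an adjusted p of 0.873 by edgeR. For Ttr, the medians ran the other way, at 13.0 CPM in adropin and 11.8 CPM in saline mice, while the means were 20.7 and 346 CPM. Their summed level was 11.1 to 73.4 CPM in adropin and 12.6 to 2460 CPM in saline mice, none of the 5 was at 0 in any mouse, and the highest saline values were those of 8_3 and 5_4. Of the cerebellum markers, 1 of 2 tested, Car8, was called lower (adjusted p = 0.873 by edgeR), with summed levels of 15.9 to 37.8 and 19.8 to 246 CPM. None of the neuron, oligodendrocyte and blood markers had an unadjusted p below 0.05 by edgeR. All 4 oligodendrocyte log2 fold changes were below 0, from -0.30 to -0.16 with a median of -0.23, close to the median of -0.25 of the mitochondrial genes, with summed levels of 2515 to 7373 CPM in adropin and 2494 to 7448 CPM in saline mice. All 4 blood markers were also below 0, with a median of -0.15 and summed levels of 95.6 to 673 and 141 to 520 CPM. All 5 neuron markers were above 0, with a median of 0.067 and summed levels of 6622 to 7944 and 6489 to 7096 CPM. Of the 3 microglia markers, 1, Cx3cr1, was called higher at 0.18 (SE 0.072, adjusted p = 0.873 by edgeR), beside 1.86% of all genes. Of the astrocyte markers 0 of 4 and of the endothelium markers 0 of 3 were called. The part of tissue composition in the mitochondrial differences was not tested.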

How the data were processed

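The authors deposited read counts per gene and CPM derived from them for 16 mouse brain libraries. Per the methods, RNA was poly-A selected and reads were aligned to the Ensembl release 76 assembly (GRCm38) with STAR, and uniquely aligned, unambiguous reads were counted per gene with featureCounts. The deposited CPM values served for one alternative only. Salmon is named in the submitters' processing notes and its output was not used.

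Of 40757 table lines, 276 were repeats and were dropped. Library sizes were scaled by TMM, and CPM in the text is TMM-scaled. The 353 genes of biotype rRNA were left out and the mitochondrial rRNA genes were kept. Genes above 1 CPM in at least 7 mice were tested with edgeR 4.0.16 (quasi-likelihood test, R 4.3.3) with no covariate and Benjamini-Hochberg adjustment over 14951 genes. Scripts were tested on simulated data. Alternatives used limma 3.58.1, DESeq2 1.42.0, other scalings and filters, leaving out mice, and label numbers as a block. Ratios of 2 genes were tested by exact permutation over 12870 divisions. The 95% intervals of fitted log2 fold changes include the spread between mice, whereas the floors for a count of 0 cover counting error only. Replicates are separate mice, and between mice of a group counts differed by more than sampling noise in 56 of 56 pairs. Positions, lengths and sequences came from GENCODE M21, matched for 37 of 37 members.

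The members were chosen by symbol, and members and gene lists were chosen with earlier results of these data known. Lowest, median and highest levels and the test were given for both rRNAs, members with an unadjusted p below 0.05, the 2 highest and 2 lowest of the mRNAs, the members of the 3 ratios and the overlapping pairs, and of the untested tRNAs the reads of the highest and lowest were given.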

Additional observations from a re-analysis of the deposited data

Results flagged for a closer look

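mt-Tp in saline mouse 5_4 lay far from the other saline mice, at 30.7 CPM against 20.4 CPM for the next highest (n = 8). It was 1 of 46 group comparisons, of single members, the total and class shares and the ratios, in which a mouse stood that far from its group. Chance gives about 5% of them, although these comparisons are not independent, as the members vary together. The log2 fold change of mt-Tp stayed below 0 with an unadjusted p below 0.05 by edgeR when that mouse was left out.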

How the results depend on the processing

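The 16 mitochondrial log2 fold changes stayed below 0 under the other scalings, filters and tests, under both blocks and when any single mouse was left out. The number called lower (2) was 4 of 37 with no filter on low counts, where 1902 of 30212 genes were called in either direction. That fit added mt-Tk and mt-Tl2, which had at most 9 and 1 reads a mouse. The number was 1 with Gm42418 as a covariate, 0 without mice 8_3 and 5_4 and 1 without 8_3, 5_4 and 4_3. The latter 2 settings and the adding of nuclear copies were chosen after seeing the data. Leaving out single mice gave 1 to 6.

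The label numbers, whose meaning is not given, were tried as a replicate block. Pairs across groups with the same first number had correlations of -0.27 to 0.22 and with the same second number of -0.56 to 0.30. These 5 and 17 pairs showed no steady likeness, but they cannot settle what the numbers mean. Only first numbers 2, 5 and 7 and second numbers 1, 3 and 4 hold both groups, so the blocked log2 fold changes rest on those mice. Blocked on the first number, 1 member was called lower and 1 nuclear machinery gene lower. Blocked on the second, 0 machinery genes were called higher, and mt-Nd5 (unadjusted p = 0.0495) replaced mt-Nd4l among the 2 members called by edgeR.

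Without 8_3 and 5_4, log2 fold changes turned to 0.095 for mt-Rnr1, 0.069 for mt-Rnr2, 0.046 for mt-Nd1, 0.0091 for mt-Co1, 0.012 for mt-Nd3 and mt-Nd6, 0.0070 for mt-Nd4 and 0.011 for mt-Cytb, and the mt-Nd6 to mt-Cytb ratio difference turned from -0.056 to 0.0030. Without 4_3 as well, mt-Rnr1 was at 0.035. The mt-Rnr2 to mt-Nd1 difference (0.0085) ran from -0.016 to 0.026 over single mice left out.

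The nuclear machinery count called higher (1, Lars2) was 0 under limma-voom, under limma-trend with a pseudocount of 1 or 0.1, with the Gm42418 covariate and without 8_3 and 5_4, and 0 to 1 without single mice. Lars2 was at 1.03 with the first block (unadjusted p = 0.000814 by edgeR) and at 0.43 with the second (unadjusted p = 0.238), and at 0.53 to 0.79 without single mice, its call being lost without adropin mouse 1_3, 5_5 or 7_4 or saline mouse 2_3, 5_4, 6_1, 6_2 or 8_1. The count called lower (0) was 1 with library size only, 2 without 8_3 and 5_4, and 0 to 1 without single mice. Differences near 0 changed sign. Tfam (0.0072) was at -0.015 with library size only, -0.012 and -0.013 under limma-trend with a pseudocount of 1 and 0.1, -0.0011 with the first block, -0.030 with the second and -0.017 with the covariate, and -0.021 to 0.031 without single mice. Lrpprc (0.021) was at -0.0012 with library size only, -0.054 with the first block, -0.034 without 8_3 and 5_4, -0.025 without 4_3 as well, and -0.0071 to 0.046 without single mice. Polrmt (-0.052) was at 0.0086 with the first block. The cause was not tested for any of these. Low counts limit the 21 untested tRNAs.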
